A study of Mus musculus with 8 samples.

Results

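Cytosolic ribosomal proteins are the protein components of the ribosomes that translate nuclear-encoded mRNA, and their genes were followed here as a family across 8 RNA-seq libraries of cultured mouse macrophages. The members were chosen by symbol and not by measured values: every row named Rpl or Rps followed by a number, with Rpsa, Rplp0, Rplp1 and Rplp2, and without the Rps6k kinases and rows whose symbols carry -ps. This gave 89 of the 17364 genes, 54 named for the large and 35 for the small ribosomal subunit. The cells, labelled BMDMs, were macrophages cultured from mouse bone marrow. Of the 8 libraries, 4 came from cells of wild-type mice and 4 from cells of Sept2C111A mice, whose allele name gives C111A, a cysteine-to-alanine change in septin 2, a GTP-binding cytoskeletal protein. Both genotypes had been exposed for 24 h to TNF-α (30 ng/ml), and no untreated cells were measured. The title of the series places the comparison in macrophage inflammation and migration and in the nitric oxide modification of septin 2. The age and sex of the mice and the zygosity of the allele were not stated in the labels. Whether the libraries of a genotype stem from separate mice or cultures is not said by the labels, so the spread that p-values rest on may be technical.

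A ribosome holds 1 copy of nearly every ribosomal protein, except that the acidic P proteins of the stalk are present in several copies. The large subunit forms peptide bonds and holds the tunnel through which the new chain leaves, and the small subunit binds mRNA and reads codons. The mRNAs of ribosomal proteins belong to the TOP class, which begin with a C and a run of pyrimidines and whose translation is under the control of the kinase complex mTORC1. Macrophages make large amounts of secreted and lysosomal protein, and ribosomal protein mRNAs are among the abundant transcripts of any growing cell.

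Libraries held 19543958 to 21288493 expected counts. A gene without reads lay below 0.14 to 0.15 CPM (reads put on one library size), a level that 3 reads give and a limit that covers counting error only. Every macrophage marker in a list of 7 was present, and their levels summed to 23325 ± 751 in wild type and to 21089 ± 807 CPM in Sept2C111A (mean ± SD, n = 4, as for every ± on a level or share). All 3 B cell markers, 6 of 7 neutrophil and precursor markers, both T cell markers found and the 3 erythroid markers found had means under 1 CPM. Stromal markers summed to 5220 to 6765 in wild type and 4158 to 5135 CPM in Sept2C111A, and 8 of the 10 were above 1 CPM, so the cultures also held stromal RNA. The RNA is that of whole cultures, in which fewer cells of a type and less RNA per cell cannot be told apart. Sept2 itself, listed as Septin2, had 226 ± 7.43 CPM in wild type against 188 ± 18.7 CPM in Sept2C111A (log2 fold change -0.27, SE 0.076, adjusted p 0.063 in edgeR), and gene counts do not show the base change. In DESeq2 its adjusted p was 0.020, and in edgeR 0.015 with library totals only and 0.027 after removal of Sept2C111A library 3, all on the lower side. Only 4 of 19 alternative fits called it. The others, fits in edgeR and limma voom, gave adjusted p-values of 0.052 to 0.22. On the first principal component of the tested genes' log2 CPM, Sept2C111A libraries 2 and 3 lay at 29.8 and 38.4 and libraries 1 and 4 at 0.13 and -1.49, while the wild-type libraries lay between -20.3 and -12.1. Computed without the ribosomal protein genes, the 4 Sept2C111A positions were 29.8 and 38.2 for libraries 2 and 3 and 0.12 and -1.29 for libraries 1 and 4. The main counts, medians and spreads of the family are also given without library 3 and without library 4. These were the highest and the lowest Sept2C111A library for most of the family, and the principal component does not single them out.

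Levels were compared between genes per length, as reads per kilobase of transcript scaled to a common library total (TPM-like). Setting aside the 12 paralogs, retrocopies and other minor forms, 77 genes remained, and 62 of them (80.5%) lay within 2-fold of their median of 1256 in wild-type libraries. All 77 lay above the median of all tested genes, which was 13.4. Among the most abundant large subunit genes were Rpl10 at 3509 ± 95.3, whose protein lies near the peptidyl transferase centre, and Rplp1, a stalk protein, at 3196 ± 290. Among the most abundant small subunit genes were Rps24 at 2932 ± 213 and Rps15 at 2522 ± 134. Rpl10 and Rplp1 differed by less than the sum of their SDs, and Rps24 and Rps15 by more. The 2 lowest genes were Rps6 at 46.6 ± 5.14 and Rps15a at 84.6 ± 3.15. Rps6 shares its reads with a copy described further on. The length used for Rps15a was 5130 bases, far above its coding length of 390 bases, so its per-length level depends on the transcript model, as does that of Rps20 (3706 bases of transcript for 357 of coding sequence).

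No ribosomal protein gene passed the genotype test, and most fold changes lay slightly above 0 in the Sept2C111A direction. Of the 89 members, 86 passed the filter on low counts (52 large, 34 small). Rpl10l, Rpl3l and Rps23rg1 did not, with 0 to 2, 0 to 6 and 0 to 3 reads per library. In edgeR's quasi-likelihood test with Benjamini-Hochberg adjustment over 12462 genes, 0 members were higher and 0 lower at an adjusted p under 0.05, where 3.43% of all tested genes were called higher and 2.99% lower (6.42% in all). At an unadjusted p under 0.05, 19 members were higher (14 large, 5 small) and 0 lower, where 12.3% of all tested genes were higher at that level and 24.8% in either direction. DESeq2 called 4 members higher (4.65%) and limma voom 0, where they called 5.54% and 3.31% of all tested genes higher. The log2 fold change of Sept2C111A against wild type was above 0 for 80 of 86 members (93.0%), where 51.8% of all tested genes were above 0. It ran from -0.24 to 0.38, with a median of 0.19, beside 0.01 over all tested genes.

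**Figure D1:**
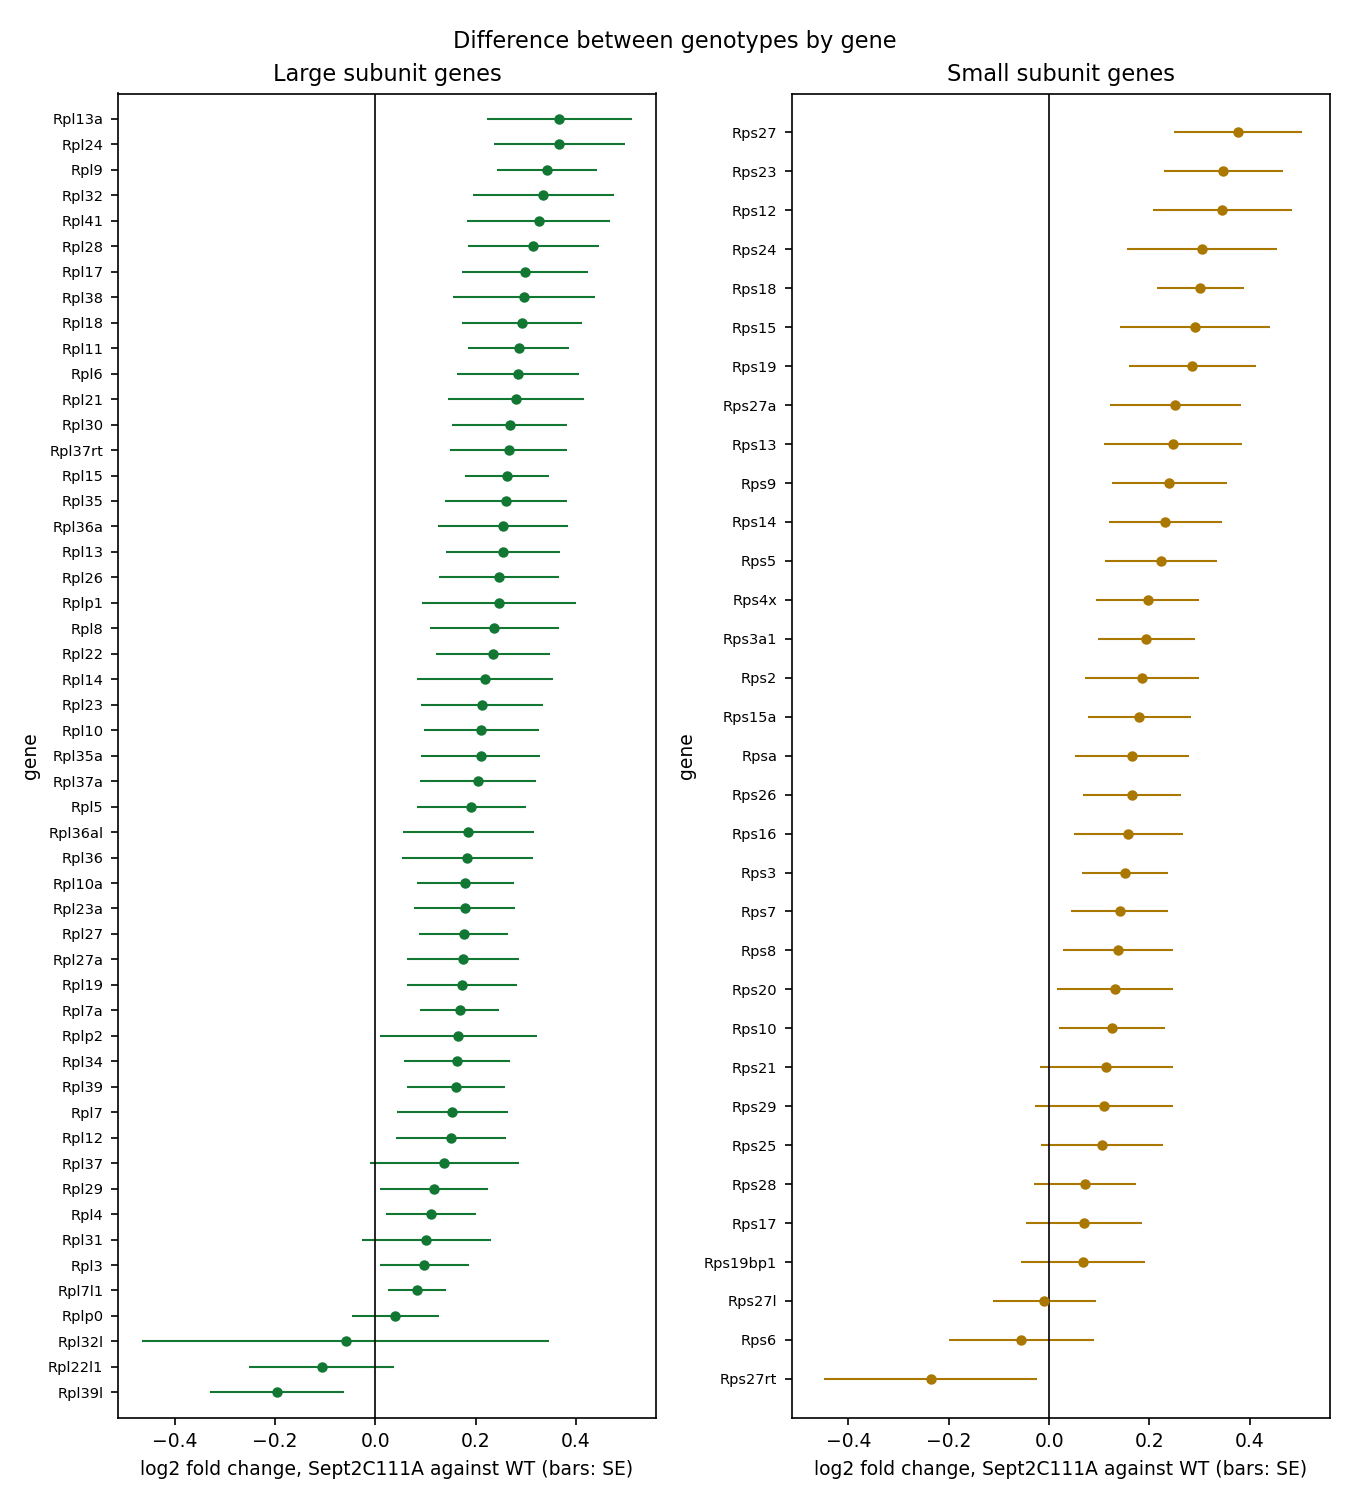
Log2 fold change of Sept2C111A against wild type for 84 of the 86 tested ribosomal protein genes (x axis), ordered by size, with large subunit genes in the left and small subunit genes in the right panel; bars are the SE of the edgeR fit. Most points lie between 0 and 0.38, 6 lie below 0, and none passed an adjusted p under 0.05.

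Rps18, a small subunit protein of the head, had the smallest p. It measured 424, 411, 440 and 437 CPM in wild-type libraries 1 to 4 and 466, 546, 610 and 488 CPM for Sept2C111A libraries 1 to 4. Every Sept2C111A library lay above every wild-type library (log2 fold change 0.30, SE 0.087, edgeR adjusted p 0.065). Rpl9, a large subunit protein at the base of the P stalk, had 361, 388, 399 and 429 in wild type and 445, 522, 590 and 442 CPM in Sept2C111A. The groups did not overlap (log2 fold change 0.34, SE 0.10, edgeR adjusted p 0.067).

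Rpl15, of the large subunit, had 594, 588, 632 and 616 in wild type and 664, 762, 827 and 661 CPM in Sept2C111A. Its groups did not overlap (log2 fold change 0.26, SE 0.083, edgeR adjusted p 0.084). Rps27, a zinc-binding protein of the small subunit, had 443, 428, 490 and 534 in wild type and 622, 625, 746 and 468 CPM in Sept2C111A. Here library 4 lay inside the wild-type range (log2 fold change 0.38, SE 0.13, edgeR adjusted p 0.10). Rps27 shares its coding sequence with the copy Rps27rt, described further on, so its values and calls depend on how reads were divided. Both rows summed to 595 ± 42.5 and 719 ± 137 CPM. Rps23, which lies at the decoding centre, had 752, 742, 806 and 814 in wild type and 859, 1044, 1236 and 822 CPM in Sept2C111A, without overlap (log2 fold change 0.35).

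The 5 next by p were Rpl11, Rpl24, Rpl13a, Rps12 and Rpl18, with log2 fold changes of 0.29 to 0.37 and adjusted p-values of 0.11 to 0.16 in edgeR. Rpl24 takes part in bridging the subunits, and Rpl13a is known to be released from the ribosome as part of an interferon-γ-activated inhibitor of translation in myeloid cells. Rpl13a had 686, 670, 753 and 806 in wild type and 835, 952, 1244 and 727 CPM in Sept2C111A. Libraries 1 to 3 of Sept2C111A lay above all wild-type values, and library 4 lay among them. Over the family, 5 of 86 members (5.81%) had all 4 Sept2C111A libraries above all 4 wild-type libraries, where 8.47% of all tested genes did (16.9% lay apart in either direction): Rps18, Rpl9, Rpl15, Rps23 and Rpl7a.

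Ribosomal protein genes varied more among the Sept2C111A than among the wild-type libraries. The median SD of log2 CPM over the 86 members was 0.10 in wild-type and 0.26 in Sept2C111A libraries, beside 0.10 and 0.18 over all tested genes. Among the 1731 other genes of at least 100 CPM, which are nearer in abundance, the medians were 0.06 and 0.13. The SD was larger among Sept2C111A libraries for 85 of 86 members (98.8%), where 79.2% of all tested genes and 90.4% of those 1731 genes had a larger SD there. The highest library of a genotype exceeded its lowest by a median of 1.17-fold in wild type and 1.52-fold in Sept2C111A. The differences between members and other genes were not tested, since members of a family share their libraries.

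**Figure D2:**
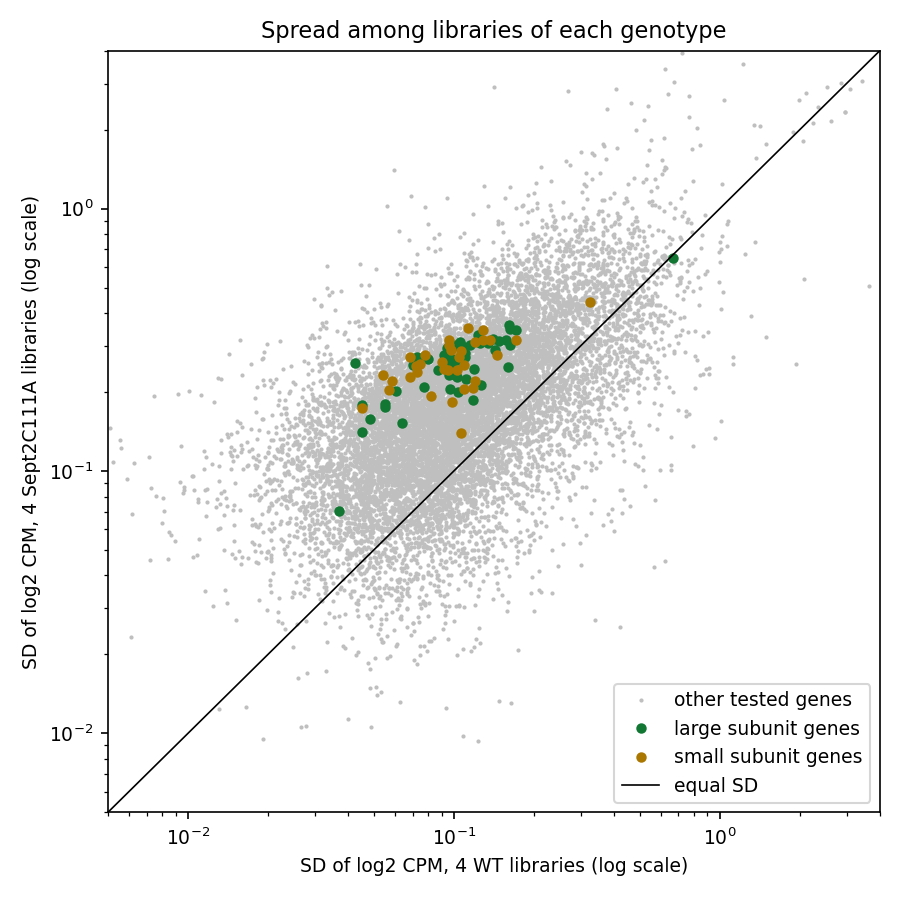
SD of log2 CPM over the 4 wild-type libraries (x axis, log scale) against that over the 4 Sept2C111A libraries (y axis, log scale), with 1 point per tested gene and the line of equal SD; large and small subunit genes are coloured over the other tested genes in grey. The coloured points lie above the line for 85 of 86 members.

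Sept2C111A library 3 was the highest and library 4 the lowest of its genotype for most of the family. Taking the median over members of log2 CPM minus the wild-type mean, the 4 wild-type libraries lay at 0.00, -0.11, 0.04 and 0.07. Sept2C111A libraries 1 to 4 lay at 0.11, 0.23, 0.48 and -0.08. Library 3 was the highest of all 8 for 83 of 86 members (96.5%), where 27.5% of all tested genes and 36.5% of the 1731 other genes of at least 100 CPM had their highest value there. The order library 3, 2, 1, 4 held for 69 members, library 3, 1, 2, 4 for 10, library 3, 2, 4, 1 for 5 and library 3, 4, 1, 2 for 2. In wild type, library 2 was the lowest of the 4 for 76 members.

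**Figure D3:**
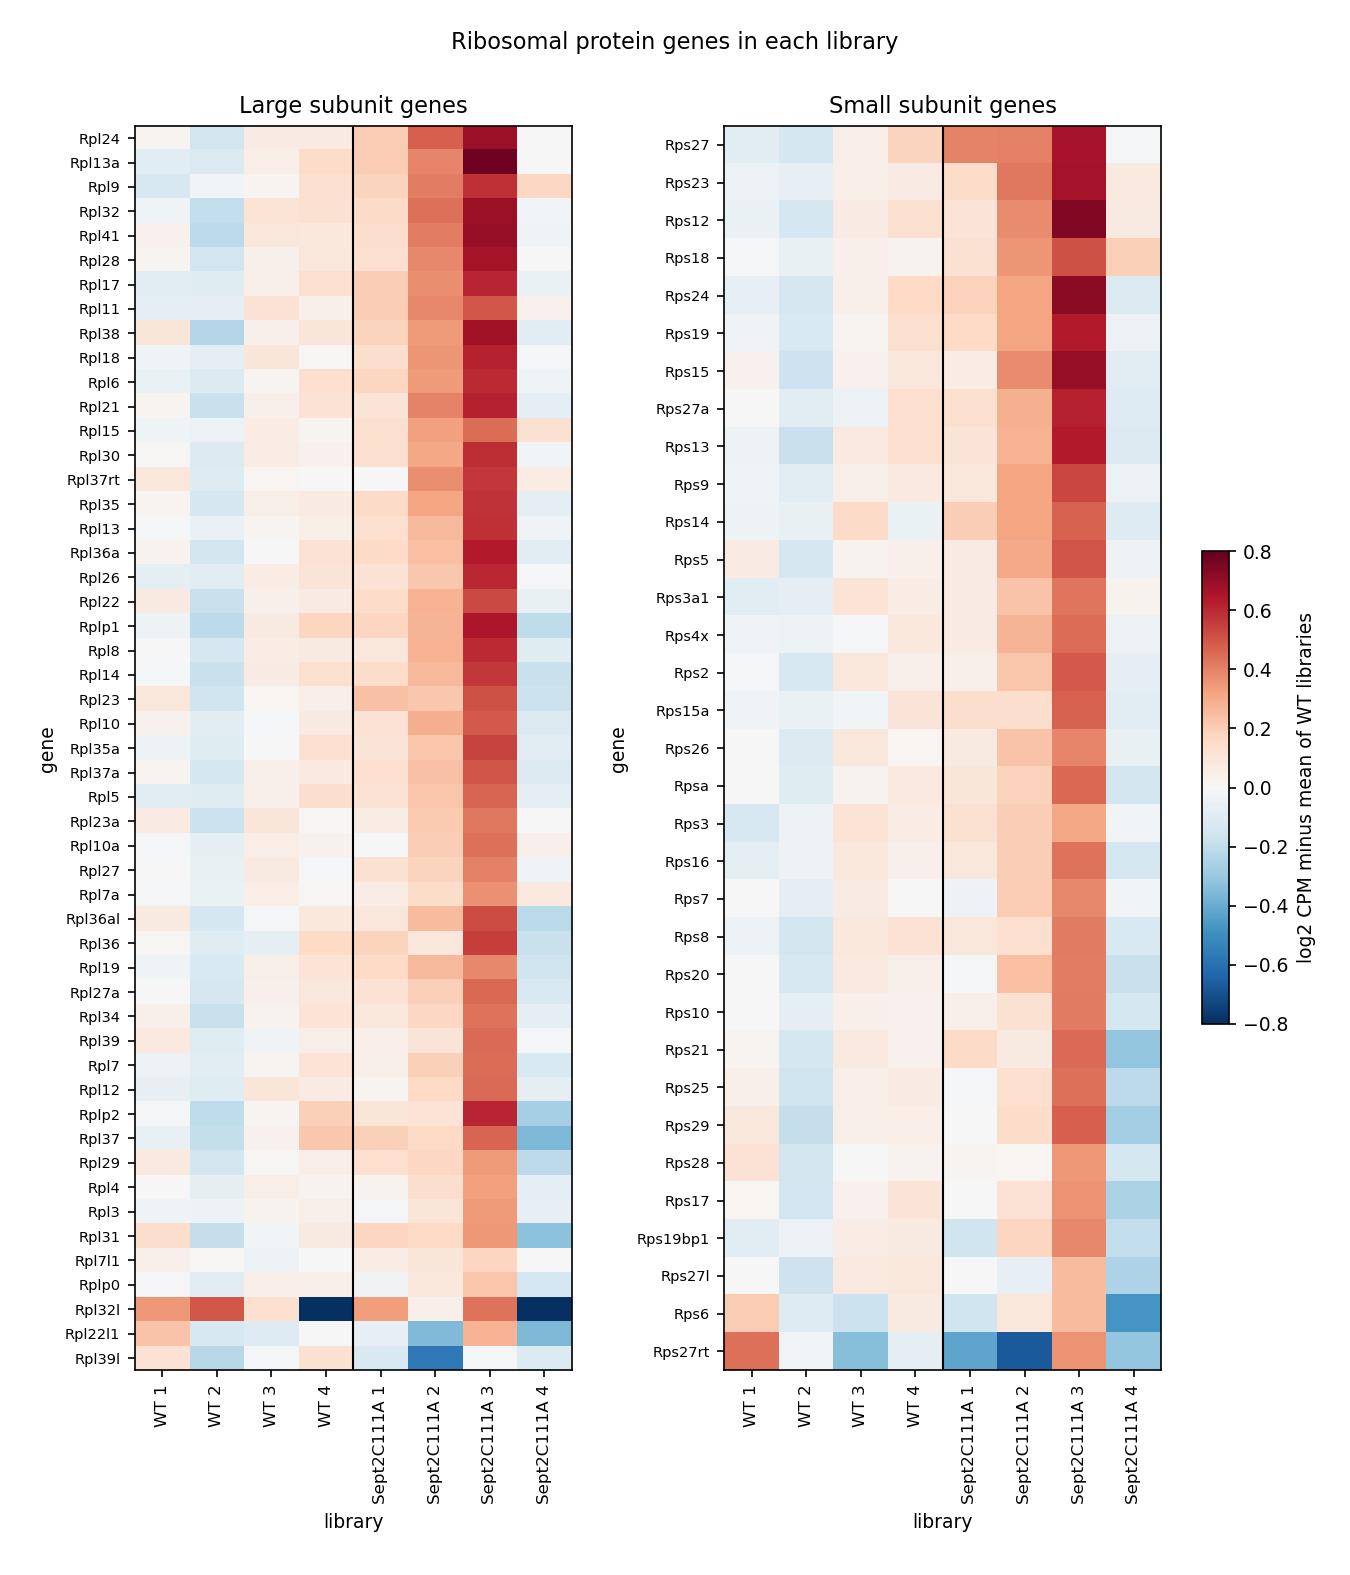
Log2 CPM of 84 of the 86 tested ribosomal protein genes (rows) in each of the 8 libraries (columns), minus the mean of its wild-type libraries, with the colour scale ending at 0.8 in either direction; large subunit genes are in the left and small subunit genes in the right panel. The column of Sept2C111A library 3 is the highest for 81 of the 84 genes drawn.

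Most of this spread was common to the family. After subtracting the family median of each library, the SD of a member's log2 CPM over the 8 libraries had a median of 0.07, against 0.21 before, and 68 members were under 0.1. The 5 at 0.15 or above were Rpl32l, Rps27rt, Rpl39l, Rpl22l1 and Rps6, all minor forms or genes with a near copy. By SD of log2 CPM, Rpl7l1 and Rpl13 varied least in wild type and Rpl7l1 and Rps3 least in Sept2C111A libraries, and Rps27rt and Rpl32l varied most in both. Rpl7l1, a paralog of Rpl7, had 94.1, 92, 88.4 and 91.3 in wild type and 95.1, 97.8, 103 and 91.7 CPM in Sept2C111A. Rps3, at the mRNA entry channel, had 573, 611, 676 and 654 in wild type and 681, 718, 777 and 617 CPM in Sept2C111A.

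The count of called members turned on library 4. Without Sept2C111A library 4, edgeR called 35 members higher (24 large, 11 small) and 0 lower, where 8.81% of all tested genes were called higher, and the median log2 fold change of members was 0.29. In the remaining libraries, 45 of 86 members (52.3%) had all 3 Sept2C111A libraries above all 4 wild-type libraries, where 15% of all tested genes did. The 10 members of smallest p, Rps18 to Rpl18 above, were all among those called, at log2 fold changes of 0.31 to 0.49 and edgeR adjusted p-values of 0.0080 to 0.042. These 10 had been ranked in a fit that holds the same libraries, so their calls here are not independent support. Without library 3, 0 members were called, where 3.25% of all tested genes were called higher, and 7 were higher at an unadjusted p under 0.05, where 11% of all tested genes were. The median was then 0.09 and 14 members were below 0, and the same 10 members lay at 0.17 to 0.27, with adjusted p-values of 0.081 to 0.28. Without libraries 2 and 3 together, 0 were called (2.35% of all tested genes were called higher), 2 were higher at an unadjusted p under 0.05 (9.29% of all tested genes), the median was 0.01 and 35 members were below 0. The median SD of members among Sept2C111A libraries was 0.18 without library 3, 0.21 without library 4 and 0.30 and 0.31 without library 1 or 2.

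Other measures also differed among the libraries. A smooth trend of each library on transcript length, read at the lengths of the members, lay at -0.11 to -0.01 on the log2 scale in wild-type libraries and at 0.03, 0.03, 0.21 and -0.11 in Sept2C111A libraries 1 to 4. With this trend removed, the median log2 fold change of members was 0.11 (0.11 for each subunit), the median over all tested genes was 0.03, and Rpl9 and Rps27 (2.33% of members) were called higher in edgeR, where 5.7% of all tested genes were. Summed stromal markers were 5135, 4203, 4158 and 5040 CPM for Sept2C111A libraries 1 to 4, lower in libraries 2 and 3. All 9 tested stromal markers had a log2 fold change below 0, where 6002 of 12462 tested genes did. At an unadjusted p under 0.05 in edgeR, 7 stromal markers were lower, where 1562 of all tested genes were. Called lower were 3 stromal markers, where 2.99% of all tested genes were. These were Col1a1, Acta2 and Postn, which encode a collagen, a contractile actin and a matrix protein. All 3 calls were lost when wild-type library 1, 3 or 4 was left out, that of Postn also without Sept2C111A library 2 and that of Col1a1 also without library 2 or 3, at an edgeR adjusted p of 0.051 to 0.17 over all fits that lost them. Summed proliferation markers were 247 ± 7.52 and 221 ± 14.9 CPM. Of 8 tested, 7 had a log2 fold change below 0, and 4 were lower at an unadjusted p under 0.05 in edgeR. Only Mki67 was called lower, from 48.4 ± 1.46 to 28.9 ± 3.64 CPM. Across the 86 members, log2 fold change and log2 transcript length had a Pearson correlation of -0.01. Apart from the fit with the length trend removed, the part of these measures in the ribosomal protein values was not tested.

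The subunits differed little from each other. Large subunit genes took 3.08%, 2.90%, 3.20% and 3.27% of the counts in wild-type libraries 1 to 4 and 3.33%, 3.53%, 4.01% and 2.97% in Sept2C111A libraries, with means of 3.11 ± 0.162% and 3.46 ± 0.434%. Small subunit genes took 2.00%, 1.92%, 2.11% and 2.12% in wild-type and 2.14%, 2.29%, 2.62% and 1.94% in Sept2C111A libraries, with means of 2.04 ± 0.0964% and 2.25 ± 0.287%. Both shares overlapped between genotypes through Sept2C111A library 4. The 95% Wilson interval of any of these shares is at most 0.00834 percentage points to either side, and covers counting error only. The ratio of large to small subunit counts was 1.54, 1.51, 1.52 and 1.54 in wild-type and 1.55, 1.54, 1.53 and 1.54 in Sept2C111A libraries (1.53 ± 0.0151 and 1.54 ± 0.00912), so the ratio varied by far less than the shares did.

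**Figure D4:**
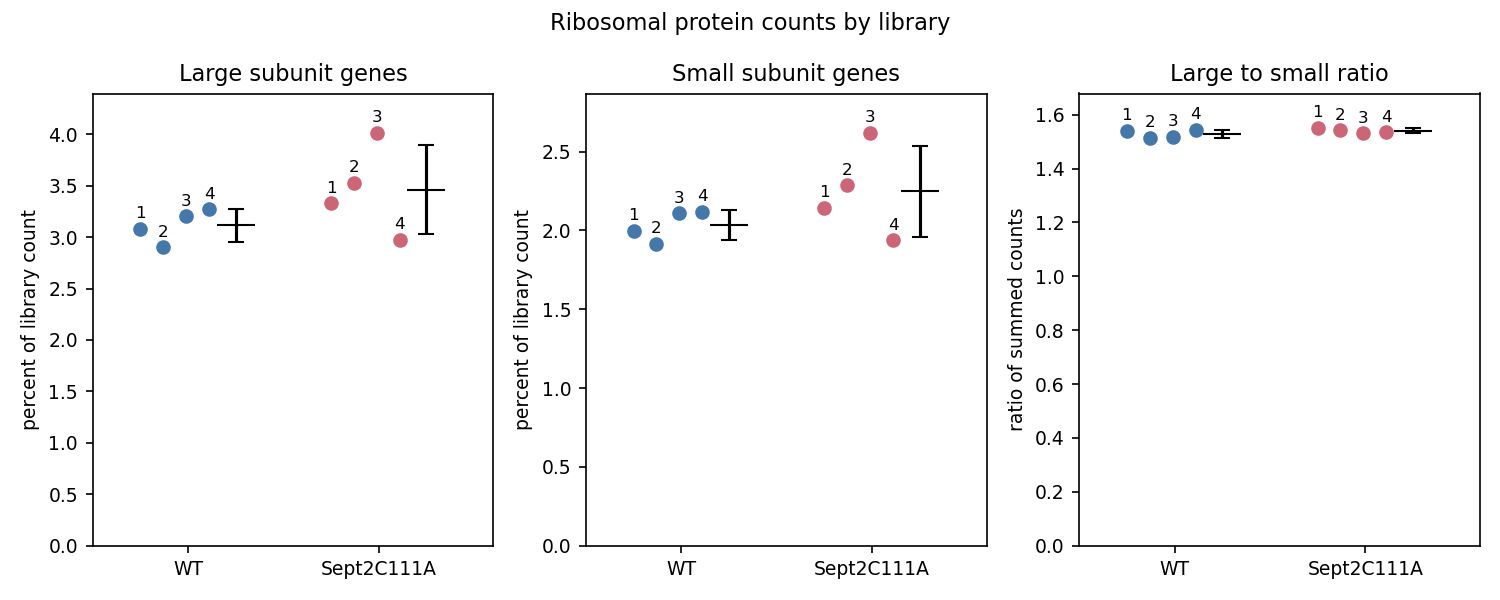
Percent of library counts in large and in small subunit genes and the ratio of these counts (y axes) in the wild-type and Sept2C111A libraries (x axis); points are libraries, numbered by replicate, with the mean and SD beside them. Both shares are highest in Sept2C111A library 3, at 4.01% and 2.62%, while the ratio stays between 1.51 and 1.55.

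The median log2 fold change was 0.21 for large and 0.17 for small subunit genes, and 49 of 52 and 31 of 34 members were above 0. Without Sept2C111A library 3 the medians were 0.09 and 0.08, and without library 4 they were 0.31 and 0.26. The median SD of log2 CPM was 0.10 in wild type for both subunits and 0.26 and 0.25 in Sept2C111A libraries. Relative to the wild-type mean, the large subunit median lay at 0.13, 0.23, 0.51 and -0.08 in Sept2C111A libraries 1 to 4 and the small subunit median at 0.08, 0.23, 0.46 and -0.11. The order of the libraries was the same in both.

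The members are given next by place in the ribosome. As in the whole family, none passed the edgeR test with all 8 libraries. In the P stalk, which recruits the elongation factors, Rplp0 had a log2 fold change of 0.04, Rplp1 0.25, Rplp2 0.17 and Rpl12, at its base, 0.15. Rplp0, often used as a reference gene, had 1760, 1665, 1832 and 1826 in wild type and 1739, 1876, 2060 and 1608 CPM in Sept2C111A, and its groups overlapped. Rpl5 and Rpl11, which bind 5S rRNA and, when free of the ribosome, the p53 ligase Mdm2, were at 0.19 and 0.29. Rpl11 had 533, 534, 611 and 580 in wild type and 646, 735, 796 and 576 CPM in Sept2C111A, with library 4 inside the wild-type range.

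The 8 genes of the peptide exit tunnel and its rim (Rpl4, Rpl17, Rpl39, Rpl19, Rpl23a, Rpl26, Rpl31 and Rpl35) had log2 fold changes of 0.10 to 0.30 with a median of 0.18. In the small subunit, the 4 genes of the mRNA entry and head (Rps2, Rps3, Rps10 and Rps20) were at 0.19, 0.15, 0.12 and 0.13. Rps27a, made as a fusion with ubiquitin, was at 0.25, with 476, 449, 462 and 523 in wild type and 520, 580, 730.5 and 443 CPM in Sept2C111A. Library 3 was the highest and library 4 the lowest of the 8 for this gene. Ribosomal proteins under other symbols were likewise not called by edgeR with all 8 libraries. Fau, a ubiquitin-like fusion with Rps30, had 880 ± 80.4 and 1209 ± 322 CPM (log2 fold change 0.46, edgeR adjusted p 0.11). Its adjusted p was 0.049 in DESeq2 and 0.013 in edgeR without Sept2C111A library 4, and 0.20 without library 3. Rack1, on the head of the small subunit, had a log2 fold change of 0.09.

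The paralogs and minor forms were more mixed in direction, a difference from the family that was not tested. Their 9 tested genes had a median log2 fold change of -0.01, and 5 of them were below 0 (Rps27rt, Rpl39l, Rpl22l1, Rpl32l and Rps27l). Of the 6 members below 0 in the whole family, the other was Rps6. Rpl39l, a paralog of the exit tunnel protein Rpl39, had 8.30, 6.58, 7.59 and 8.35 in wild type and 7.05, 5.14, 7.58 and 7.09 CPM in Sept2C111A (log2 fold change -0.20, SE 0.13). Rpl22l1, a paralog of Rpl22, had 19.6, 15.3, 15.6 and 16.7 in wild type and 16.0, 13.1, 20.3 and 13 CPM in Sept2C111A (log2 fold change -0.11, SE 0.14). The groups of both genes overlapped. Rps27l, a paralog of Rps27 and a known p53 target, was at 69.3 ± 5.52 and 68.9 ± 10.04 CPM (log2 fold change -0.01). Rpl37rt, with 373 ± 20.5 and 449 ± 83.9 CPM, had a log2 fold change of 0.27 (edgeR adjusted p 0.19), Rpl36al 0.18 and Rpl7l1 0.08. Sept2C111A library 3 was the highest of the 8 for 6 of the 9. Rps19bp1, which encodes a protein that binds Rps19 and is not a ribosomal subunit, had 22.1 ± 1.19 and 23.2 ± 4.53 CPM (log2 fold change 0.07). Rpl32l was at 0.24 to 0.75 CPM in every library, close to the level of 3 counts.

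Paralogs differ at many bases. The first 60 coding bases are shown for Rps27 and Rps27l and for Rpl39 and Rpl39l. Rps27, Rpl39, Rpl39l and Rps27l had log2 fold changes of 0.38, 0.16, -0.20 and -0.01 (SE 0.13, 0.098, 0.13 and 0.10). None was called in edgeR with all 8 libraries, at adjusted p-values of 0.10, 0.33, 0.40 and 0.97. Without Sept2C111A library 4, Rps27l was at 0.07. Capitals mark differing bases, and the whole coding sequences were 76.2% and 85.5% identical over the aligned bases. Sequences are from GENCODE transcripts on GRCm38 (mm10), Rps27 at chr3:90212522-90213651 (minus strand), Rps27l at chr9:66946086-66949516 (plus), Rpl39 at chrX:37082520-37085402 (minus) and Rpl39l at chr16:10170226-10174911 (plus).
Rps27: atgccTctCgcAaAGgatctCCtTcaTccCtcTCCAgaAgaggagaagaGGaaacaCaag
Rps27l: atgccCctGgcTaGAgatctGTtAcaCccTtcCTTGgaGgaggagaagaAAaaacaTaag
Rpl39: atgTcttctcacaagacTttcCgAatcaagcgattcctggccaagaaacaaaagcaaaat
Rpl39l: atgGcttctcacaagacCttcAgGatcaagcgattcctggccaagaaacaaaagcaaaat

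For Rps6 the row of the gene held few of the reads. Rps6, the small subunit protein that S6 kinase phosphorylates downstream of mTORC1, had 26.1 ± 3.12 in wild type and 25.1 ± 5.32 CPM in Sept2C111A (log2 fold change -0.06), the lowest level per length among the 77 genes. A row named Rps6-ps4, an annotated processed pseudogene that the naming rule leaves out, had 885 ± 52.8 and 1022 ± 174 CPM. All 747 coding bases of Rps6 recur in it, and 83.6% of the 100-base windows of the Rps6 transcript occur in it, so reads from those windows match both rows equally well. Which share of reads this touched was not tested. The start of the coding sequence is shown for both, Rps6 at chr4:86854660-86857412 (minus strand) and Rps6-ps4 at chr2:75191073-75191822 (minus).
Rps6: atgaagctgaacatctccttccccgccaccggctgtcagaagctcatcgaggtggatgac
Rps6-ps4: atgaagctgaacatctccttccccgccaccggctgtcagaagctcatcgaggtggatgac
Summed over both rows, the counts were 864, 870, 959 and 952 in wild type and 948, 1105, 1270 and 865 CPM in Sept2C111A. The summed values had the family's library order, with library 3 the highest of the 8.

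In all, 9 members share such windows with another row above 1 CPM, among them Rplp2 with Wdr89 (36.0% of windows) and Rpl21 with BC004004 (13.5%). The 3 further pairs with the largest copies are given here. Rps27 and Rps27rt are identical over all 252 coding bases, and 98.4% of the windows of Rps27 occur in Rps27rt. Rps27rt had 162, 118, 94.1 and 113 in wild type and 88.9, 75.0, 153 and 96.2 CPM in Sept2C111A (log2 fold change -0.24, SE 0.21), and its Sept2C111A libraries had the order 3, 4, 1, 2. Summed with Rps27, the counts were 604, 545, 584 and 647 in wild type and 711, 700, 899 and 564 CPM in Sept2C111A. Rpl37 and Rpl37rt share 290 of 291 coding bases and summed to 452 ± 25.2 and 536 ± 99.1 CPM, of which Rpl37rt held most. Rpl31 and the excluded row Rpl31-ps12 share 371 of 375 coding bases and summed to 701 ± 57.9 and 768 ± 143 CPM. The coding starts of this pair differ at 1 base, in capitals (Rpl31 at chr1:39367842-39371911, plus strand; Rpl31-ps12 at chr16:16819749-16820123, minus).
Rpl31: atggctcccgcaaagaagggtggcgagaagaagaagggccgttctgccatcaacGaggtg
Rpl31-ps12: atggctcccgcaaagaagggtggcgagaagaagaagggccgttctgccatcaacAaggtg

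**Figure D5:**
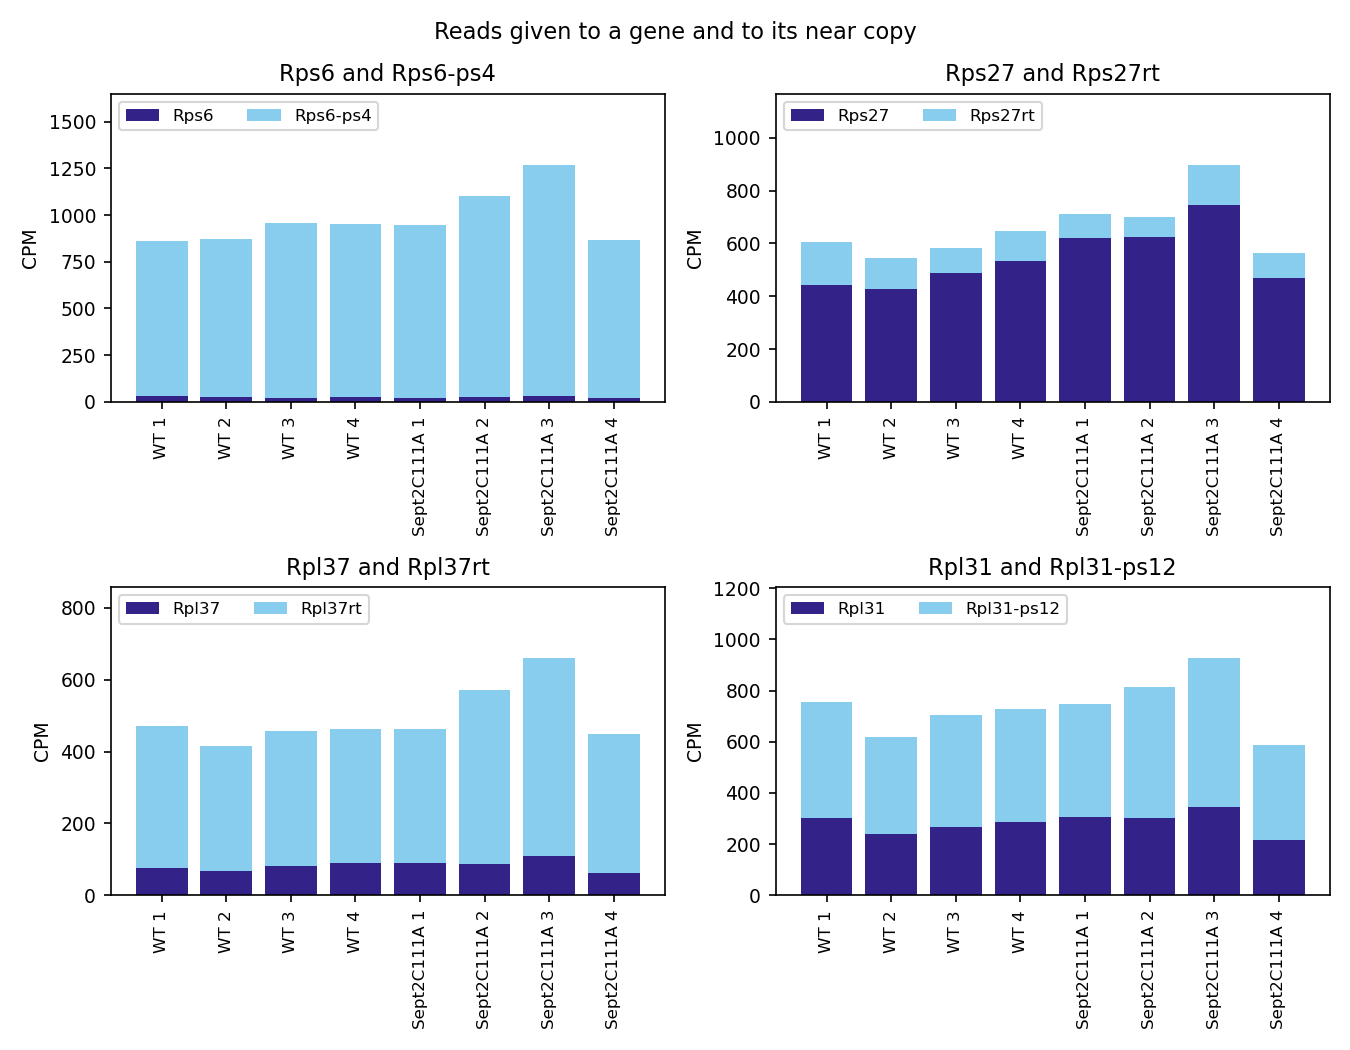
CPM (y axis, from 0) in each of the 8 libraries (x axis) for 4 pairs of a ribosomal protein gene and its near copy, stacked so that the full bar is the sum of the pair. Nearly all reads of the Rps6 pair stand in Rps6-ps4, at 885 ± 52.8 CPM in wild-type libraries against 26.1 ± 3.12 CPM for Rps6.

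The annotated starts of the genes carry the pyrimidine run of the TOP class in part. Starts from RefSeq on GRCm38.p6 were found for 69 of the 89 members, and each window was read on the strand of its gene. A C at the annotated first base followed by at least 4 C or T was present in 15 of the 69 (21.7%), 8 of 42 large and 7 of 27 small subunit genes, where 3.01% of the 27025 genes of the table and 0 of 69 mitochondrial ribosomal protein genes had it. A C followed by at least 6 C or T within 15 bases of the start was present in 34 of 69 (49.3%), beside 16.4% of all genes and 11 of 69 (15.9%) mitochondrial ribosomal protein genes. The second count allows for starts annotated a few bases off and was added after the first had been seen. A match is a description of letters, and no match says only that they are not in this window.

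Shown are the 30 bases around the start (the first transcribed base is the 16th) for the 5 members of smallest p, with the run in capitals where there is one. Rps18 is at chr17:33955651-33955680, Rpl15 at chr14:18270972-18271001, Rps27 at chr3:90213634-90213663 and Rpl9 at chr5:65391417-65391446, on the minus strand of GRCm38.p6, and Rps23 is at chr13:90923107-90923136 on the plus strand. Of the 10 members of smallest p, these 3 with capitals have the run at the first base.
Rps18: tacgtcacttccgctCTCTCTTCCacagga
Rpl15: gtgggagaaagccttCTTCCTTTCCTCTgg
Rps27: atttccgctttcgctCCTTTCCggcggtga
Rpl9: acgcagggccctgacggattacaagaacgt
Rps23: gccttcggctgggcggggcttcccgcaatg

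The other genes of translation were counted in the same fit. Of 78 mitochondrial ribosomal protein genes, which build the separate ribosome of that organelle, 2 were called higher and 0 lower in edgeR. Over all tested genes 3.43% were called higher, a share that these 2 calls do not exceed. In 68 (87.2%) the log2 fold change was above 0, where 51.8% of all tested genes were, and the median was 0.14. The 2 called were Mrpl27, from 28.3 ± 1.49 to 37.7 ± 6.03 CPM, and Mrpl42, from 36.6 ± 1.57 to 47.0 ± 6.40 CPM. Both calls were lost without any wild-type library or Sept2C111A library 2, that of Mrpl27 also without library 1 and that of Mrpl42 also without library 3, at an adjusted p of 0.053 to 0.12 and 0.056 to 0.19 over all fits that lost them. Sept2C111A library 3 was the highest of the 8 for 67 of the 78 (85.9%), where 27.5% of all tested genes had their highest value there. Their summed level was 2329 ± 93.5 and 2553 ± 356 CPM, with 2423, 2598, 3017 and 2172 CPM for Sept2C111A libraries 1 to 4, the same order of libraries as for the cytosolic genes.

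Most ribosome assembly genes had a log2 fold change below 0. Of 40 ribosome biogenesis genes, 0 were called higher and 3 lower in edgeR, where 2.99% of all tested genes were called lower. Below 0 were 34, so 15% were above 0, where 51.8% of all tested genes were, and the median log2 fold change was -0.11. Relative to the wild-type mean, their median lay at 0.05, -0.06, 0.03 and -0.02 in wild-type libraries. It lay at -0.04, -0.16, 0.03 and -0.21 in Sept2C111A libraries 1 to 4, with libraries 1 and 3 inside the wild-type range. Rrs1, an assembly factor of the large subunit, fell from 39.0 ± 1.31 to 27.2 ± 3.11 CPM (log2 fold change -0.52, edgeR adjusted p 0.0055). Rrp12, which acts in export and maturation of pre-ribosomes, fell from 17.7 ± 0.952 to 13.5 ± 0.920 CPM, and Tsr1, an assembly factor of the small subunit, from 22.8 ± 0.803 to 17.7 ± 2.38 CPM. The call of Rrs1 held in all 19 alternative fits. That of Rrp12 did not hold when Sept2C111A library 2 or wild-type library 1 or 4 was left out, and that of Tsr1 was lost on leaving out any 1 library except Sept2C111A library 4. Over all fits that lost them, the edgeR adjusted p was 0.063 to 0.082 for Rrp12 and 0.052 to 0.19 for Tsr1. Sept2C111A library 4 had the most Tsr1 of its genotype, at 21.04 CPM.

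Among translation factors few passed. Of 8 elongation genes, 0 were called higher and 1 lower in edgeR, 6 had a log2 fold change above 0, and the median was 0.11. The 1 called was Eef1e1, from 19.1 ± 0.198 to 15.7 ± 0.591 CPM, whose product is known as a scaffold of the tRNA synthetase complex and not as an elongation factor. Its call was lost without any wild-type library or Sept2C111A library 2, at an edgeR adjusted p of 0.064 to 0.12 over all fits that lost it. Of 13 subunits of initiation factor eIF3 and 21 other initiation factors, 0 were called in edgeR, with medians of 0.06 and -0.04 and with 4 and 4 at an unadjusted p under 0.05. Of these, Eif3f, chosen here after its values were seen, was called higher in DESeq2 and, in edgeR, without Sept2C111A library 4 (adjusted p 0.040 and 0.014). Of 13 genes of mTORC1 and its control of TOP mRNAs, 0 were called (1 at an unadjusted p under 0.05, on the lower side), with a median of -0.02, and Larp1, which binds the TOP start, was at -0.12.

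Of 10 p53 pathway genes, listed because free Rpl5 and Rpl11 act on Mdm2, 8 were below 0, where 6002 of 12462 tested genes were. At an unadjusted p under 0.05 in edgeR, 6 were lower and 1 higher, where 1562 and 1530 of all tested genes were. After adjustment, 0 were called higher and 1 lower, where 3.43% and 2.99% of all tested genes were. That 1 was Cdkn1a, an inhibitor of cyclin-dependent kinases, at 1778, 1870, 1768 and 1858 in wild type and 1307, 1395, 1065 and 1044 CPM in Sept2C111A. The groups lay apart (log2 fold change -0.60, SE 0.10, edgeR adjusted p 0.0067), and the order of the Sept2C111A libraries was not that of the ribosomal protein genes. The call held in all 19 alternative fits. The 12 host genes of small nucleolar RNAs on the list were not analysed here.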

How the data were processed

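Expected counts per gene were deposited by the authors, 1 column per library, for 17364 gene symbols; such counts divide reads that match several genes, so values can be fractional. Per the submitters' processing notes, mm10, DESeq2 1.4.5, RSEM 1.3.1 and Bowtie2 were used, with no roles given. The annotation, the use of strand and any gene filter were not stated. Per the labels' protocols, mRNA was enriched with oligo(dT) beads. If strand was not used, a gene and an antisense partner share reads.

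Counts were rounded. Genes were filtered with filterByExpr (minimum count 10), normalized by TMM and fitted with edgeR 4.0.16 in R 4.3.3 (robust quasi-likelihood F test, two-sided, genotype as the only term, called at a Benjamini-Hochberg adjusted p under 0.05). The SE was taken as the size of the log2 fold change over the root of F. CPM use normalized library sizes, log2 CPM a prior count of 1, and SDs are over 4 libraries. Shares are of library totals. Library pairs had a mean chi-square per gene of at least 3.87, so no library copied another. Transcript lengths, the lower median over protein-coding transcripts of GENCODE, covered 98.9% of tested genes; near copies share windows of 100 bases.

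The scripts were tested on simulated data. The members and all lists were chosen with earlier results of these data known. Named members are the 10 of smallest p, the 3 most abundant per length of each subunit, the minor forms, those in fixed structural roles and those with extreme SDs; from other lists, up to 3 called genes of smallest p or the most abundant gene. Alternatives were RLE and total-count scaling, TMM without members, other filters, DESeq2 1.42.0, limma 3.58.1 (voom), a replicate block, each library left out, Sept2C111A libraries 2 and 3 left out together, and a length trend removed with mgcv 1.9.3. Adding rows with -ps symbols and the wider start window were chosen after seeing the data. Protein sequences were not used here, and some genes that the rule names are not reported here.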

Additional observations from a re-analysis of the deposited data

How the results depend on the processing

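The count of 800 called genes was 1428 in DESeq2, 1276 with the length trend removed, 524 without Sept2C111A libraries 2 and 3 together, and 257 to 2096 on leaving out each library; it was 257 to 464 without each wild-type library or Sept2C111A library 2 and was 2096 without Sept2C111A library 4. Members called higher were 0, and 4 in DESeq2 (Rps18, Rpl9, Rpl15 and Rps27), 2 with the length trend removed, and 0 to 35 on leaving out each library, with 2 without Sept2C111A library 1 and 35 without Sept2C111A library 4. No alternative called a member lower. Median log2 fold changes of large and small subunit genes stayed above 0, at 0.09 and 0.08 without Sept2C111A library 3 and 0.11 each with the length trend removed, except -0.01 for the small subunit without Sept2C111A libraries 2 and 3, where the large was 0.02; with library totals only they were 0.14 and 0.11, and 7 in place of 6 members were below 0. The ratio of large to small subunit counts was 1.51 and 1.52 (wild type, Sept2C111A) without minor forms and 1.49 and 1.50 with the -ps rows added. The median SD of members among Sept2C111A libraries was 0.181 to 0.313 on leaving out each library and 0.135 without libraries 2 and 3. The causes were not tested. Members with few reads, such as Rpl32l, are limited by depth.

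With the replicate number as a block, 497 genes and 0 members were called, and with the block and the length trend removed, 925 and 0. Same-numbered libraries of the genotypes correlated at 0.13, 0.09, -0.02 and -0.22 in their deviations, and differently numbered ones at -0.21 to 0.23. The deviations were taken from the mean of each genotype, which ties these correlations to each other. They therefore cannot decide whether same-numbered libraries share a culture or batch, and the labels give only the number.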
